A study of Mus musculus with 9 samples.

Results

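The genes described here encode the mitochondrial respiratory chain and the ATP synthase of the E10.5 mouse embryo. They were taken as every probe whose symbol begins with *Nduf* followed by a, b, c, s or v, with *Uqcr*, with *Cox4* to *Cox8* or with *Atp5*, or is *Sdha*, *Sdhb*, *Sdhc* or *Sdhd*. This rule found 88 probes for 73 genes, of 25697 probes for 18120 symbols on the array. Complex I had 39 probes for 32 genes, complex II 6 probes for 3 genes, complex III 6 probes for 6 genes, complex IV 18 probes for 16 genes and complex V 19 probes for 16 genes. *Sdha* was not analysed here. The rule also took in *Ndufaf1*, an assembly factor, *Ndufa4*, which is now placed with cytochrome c oxidase, and *Atp5s*, which carries the synthase name without being a subunit.

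All tissue came from untreated CD-1 embryos at E10.5. Pools were made of otic vesicles (OV), of periotic tissue, which held mesenchyme and hindbrain, and of whole embryos from which the greater otic region had been removed (embryo-minus-otic). Each group had 3 pools, and each pool was hybridized to an Illumina array of its own with 1 colour. The pools came from 3 litters, and which pool number came from which litter was not stated, so a p-value here measures the spread between 3 arrays of a group. In such pooled tissue, fewer cells of a type and less RNA per cell cannot be told apart.

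The respiratory chain passes electrons from NADH and succinate to oxygen and pumps protons out of the mitochondrial matrix. Complex I (NADH dehydrogenase) and complex II (succinate dehydrogenase) take up the electrons, complex III (cytochrome bc1) passes them to cytochrome c, and complex IV (cytochrome c oxidase) hands them to oxygen. The ATP synthase, complex V, lets the protons back in and makes ATP. Most nuclear subunits are made in nearly every tissue, but several subunits of cytochrome c oxidase have a second gene used in heart and skeletal muscle, lung or testis.

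The promoters of these genes were read from RefSeq on GRCm38.p6, as windows of 250 bases before and 50 bases after each gene start. All 73 genes matched a RefSeq gene, 69 by symbol and 4 by 1 synonym, and 60 of them had an entry, with 65 windows. *Cox6a2* had none. The windows held a median of 19 CpG dinucleotides, against 7 in all 32851 windows, and a median GC content of 57.3% against 52.7%. The stretch before the start is shown for *Cox7a1*, the muscle form of a cytochrome c oxidase subunit, and for *Cox7a2*, its widely used partner, because the arrays measured a group difference in *Cox7a1* and none past the threshold in *Cox7a2*. The pair was picked for its array values, and whether CpG number goes with a group difference or an isoform type was not tested. Capitals mark each CpG, 4 in *Cox7a1* (chr7:30183921-30184170, plus strand) and 14 in *Cox7a2* (chr9:79759854-79760103, minus strand).
Cox7a1: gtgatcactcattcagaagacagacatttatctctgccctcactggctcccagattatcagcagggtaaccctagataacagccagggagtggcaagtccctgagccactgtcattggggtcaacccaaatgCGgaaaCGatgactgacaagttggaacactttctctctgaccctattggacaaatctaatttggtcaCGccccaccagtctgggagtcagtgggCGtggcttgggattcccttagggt
Cox7a2: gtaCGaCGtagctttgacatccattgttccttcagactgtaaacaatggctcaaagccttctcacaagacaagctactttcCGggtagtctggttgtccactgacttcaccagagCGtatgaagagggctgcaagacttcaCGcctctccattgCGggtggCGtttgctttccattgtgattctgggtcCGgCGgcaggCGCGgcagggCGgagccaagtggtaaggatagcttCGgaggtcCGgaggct

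Motifs of factors known to act on respiratory genes were searched in the windows on both strands. The NRF1 core GCGCATGC stood in 13.8% of the members' windows and in 2.71% of all windows. The YY1 core GATGGCGG stood in 10.8% against 1.7%, and the ERR half-site TCAAGGTCA in 3.08% against 0.423%. The TATA box TATAAA, searched only on the strand of the gene, stood in 4.62% against 8.32%. The MEF2 site, a muscle motif whose match can contain a TATA box, stood in 0 of 65 windows and in 3.19% of all. By complex, the YY1 core lay in 20% of the 30 complex I windows (17.9% of 28 genes) and in 5.56% of the 18 of complex V. It lay in 0 windows of complexes II, III and IV. The NRF1 core lay in 6.67% of the complex I windows, 1 of 2 of complex II and 2 of 4 of complex III. For complexes IV and V the NRF1 share was 9.09% of 11 and 16.7% of 18. A match is a run of letters and not a measured binding site. The NRF1 and YY1 letters each hold a CpG, and the windows compared were not matched for CpG or GC content. One example of each of the first 3 motifs is shown from a gene whose values follow, with the motif in capitals. The NRF1 letters of *Cox6a1* (chr5:115349101-115349130, minus strand) match on both strands with overlap. The ERR letters of *Sdhd* (chr9:50603800-50603829, minus strand) match on the reverse strand, and the YY1 letters of *Ndufs6* (chr13:73328433-73328462, minus strand) lie just after the start.
Cox6a1: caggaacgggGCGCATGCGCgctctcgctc
Sdhd: tttccgggttgtagagTGACCTTGAgccct
Ndufs6: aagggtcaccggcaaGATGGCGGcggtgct

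The deposited value of a probe was its average signal on an array, which was put on a log2 scale and quantile normalized across all 9 arrays. Above background means a detection p-value under 0.01 on an array. By this measure 78 of the 88 probes (88.6%) were above background on all 9 arrays, against 38.0% of all probes. The OV, periotic and embryo-minus-otic arrays had 78 to 80, 79 and 80 of the 88 probes above background. On none of the arrays were *Cox4i2*, *Cox8b*, *Cox8c*, *Ndufs1* and *Atp5k* above background, nor 1 probe each of *Sdhc* and *Atp5j*. *Uqcrfs1* passed on 1 OV array alone, so complex III had 5 of 6 probes on all arrays. The remaining exceptions were the muscle isoforms *Cox6a2* and *Cox7a1*, given below. At the threshold of 0.05 the counts were 79 to 81, 79 to 80 and 80.

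Most of these probes differed little between the tissues. A linear model of the 3 groups was fitted to every probe with limma, with *q* the p adjusted by Benjamini-Hochberg across all 25697 of them, with a call at *q* under 0.05. Against embryo-minus-otic, 1 of 88 member probes was higher in OV (1.14%, with 5.89% of all probes called higher) and 7 were lower (7.95%, with 5.51% of all probes called lower). In that comparison an unadjusted p under 0.05 was reached by 1 higher and 12 lower (14.8%, with 21.4% of all probes). Against periotic tissue, 1 was higher in OV (1.14%, with 5.07% of all probes) and 0 were lower (with 5.15% of all probes). There an unadjusted p under 0.05 was reached by 2 higher and 4 lower (6.82%, with 19.1% of all probes). Between the non-otic groups, 0 were higher in periotic tissue (with 2.86% of all probes) and 2 were lower (2.27%, with 2.95% of all probes). There an unadjusted p under 0.05 was reached by 0 higher and 8 lower (9.09%, with 16% of all probes). The 7 lower in OV against embryo-minus-otic are near the share of all probes, and the other shares lie at or below it.

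These probes are brighter than most, and bright probes are called more often. Of the 12849 probes that were brighter by their mean over the 9 arrays, 21.2% were called in OV against embryo-minus-otic, 19.0% in OV against periotic tissue and 11% between the non-otic groups. Among the 80 member probes in that range the shares were 10%, 1.25% and 2.5%.

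The sizes of the differences were also set beside those of all probes. The 95% interval of the difference lay within a 1.5-fold change in either direction for 78 of 88 probes in OV against embryo-minus-otic, 81 in OV against periotic tissue and 83 between the non-otic groups, where the shares of all probes were 87.8%, 88.8% and 92.0%. A log2 difference over 0.5 in size was seen in 3, 0 and 2 of the 88 probes, and in 6.39%, 6.25% and 3.64% of all probes. Among the 80 brighter member probes the interval lay within 1.5-fold for 87.5%, 91.2% and 93.8%. Of the brighter 12849 probes, it did so for 76.6%, 78.5% and 84.7%. A difference over 0.5 was seen in 3.75%, 0% and 2.5% of those members, and in 12.4%, 12.1% and 7.07% of the brighter probes. Over the 88 probes the median log2 difference was -0.05 in OV against embryo-minus-otic and -0.04 in OV against periotic tissue. It was -0.02 in periotic tissue against embryo-minus-otic, and the medians of all probes lay within 0.01 of 0. With arrays centred on their medians in place of quantile normalization, the OV against embryo-minus-otic and the non-otic medians became 0.06 and 0.15. For all probes they were 0.05 and 0.05. The sign of these small medians therefore depends on the scaling. On each array 43.9% to 47.3% of all probes were above background, so its median fell among probes that were not. In OV against embryo-minus-otic, 56 of 88 differences (63.6%) were below 0, against 48.7% of all probes.

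**Figure D1:**
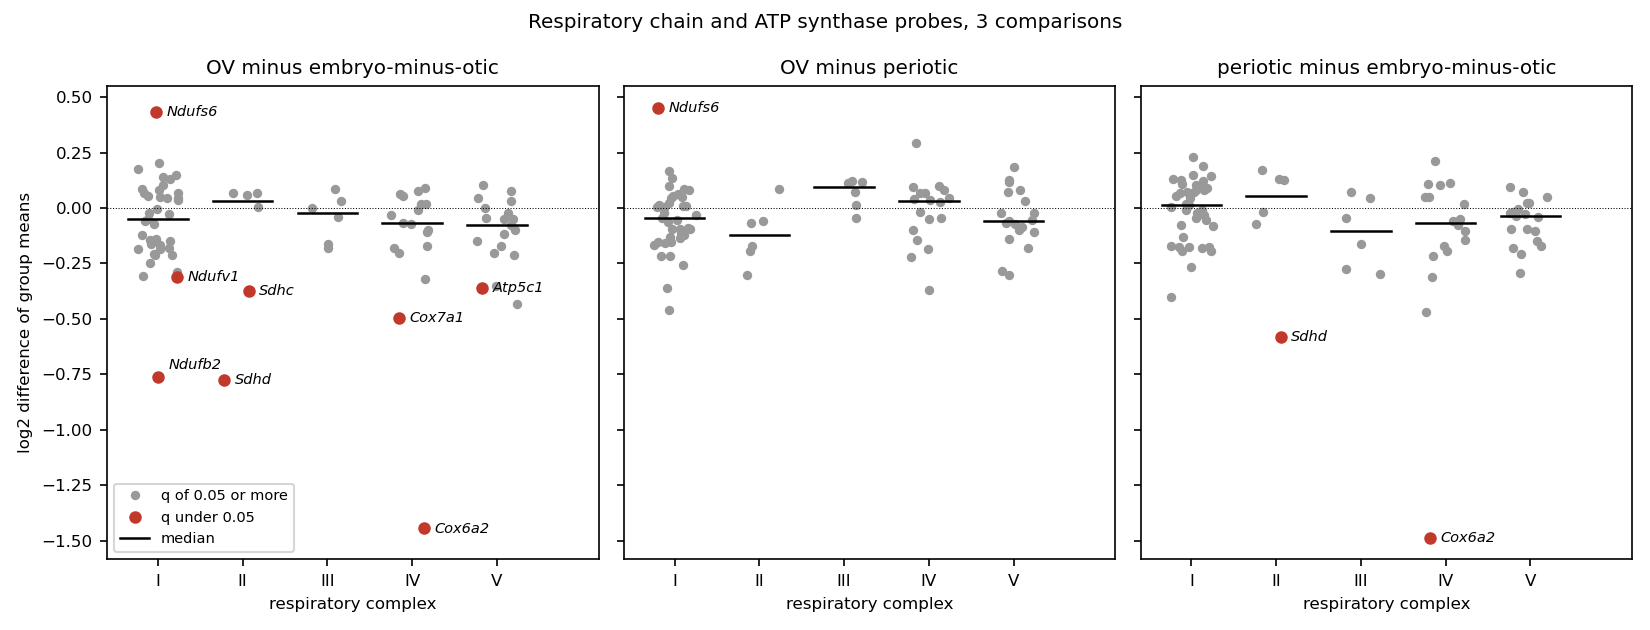
Log2 difference of group means (vertical axis) for each of the 88 probes, by respiratory complex (horizontal axis), in each of the 3 comparisons. Grey points have a *q* of 0.05 or more, red points are called and named, and bars are medians. All but 3, 0 and 2 of the points lie within 0.5 of 0 in the 3 panels, and with another scaling the small medians can change sign.

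Complex I had 3 probes called in OV against embryo-minus-otic (7.69% of 39, with 11.4% of all probes and 21.2% of the brighter 12849). Of these, 1 was also called against periotic tissue (2.56%, with 10.2% of all probes). *Ndufs6*, an accessory subunit at the base of the peripheral arm, was the only member called higher in OV. Its log2 intensities were 12.41, 12.52 and 12.17 on the OV arrays, 12.00, 12.03 and 11.70 on the periotic tissue arrays and 12.13, 11.65 and 12.01 on the embryo-minus-otic arrays. All 3 OV arrays lay above the other 6, by a small gap over the highest of them. OV was higher by 0.43 on the log2 scale against embryo-minus-otic (SE 0.13, 1.35-fold, *q* = 0.048) and by 0.45 against periotic tissue (SE 0.13, 1.37-fold, *q* = 0.041). Both values lie close to the threshold. The first lost its call in 9 of 17 alternatives (*q* from 0.016 to 0.21 over the 17), among them without embryo-minus-otic replicate 2 (0.20) or 3 (0.070), OV replicate 1 (0.13) or 2 (0.20) and periotic replicate 1 (0.065) or 2 (0.053). The second lost it in 8 (*q* from 0.013 to 0.39), among them without embryo-minus-otic replicate 3 (0.054), OV replicate 1 (0.12) or 2 (0.18) and periotic replicate 1 (0.069) or 3 (0.18).

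*Ndufb2*, an accessory subunit of the membrane arm, was lower in OV. Its log2 intensities were 7.73, 7.74 and 7.43 on the OV arrays, 7.95, 7.76 and 8.27 on the periotic arrays and 8.42, 8.72 and 8.06 on the embryo-minus-otic arrays. The OV arrays all lay below the embryo-minus-otic arrays, with periotic tissue between and overlapping the latter. The log2 difference of OV from embryo-minus-otic was -0.76 (SE 0.16, embryo-minus-otic 1.70-fold higher, *q* = 0.0038), and it lost its call in 1 of 17 alternatives, median normalization (*q* = 0.20, over the 17 from 8.2e-04 to 0.20). The differences of OV from periotic tissue (-0.36, *q* = 0.21) and of periotic tissue from embryo-minus-otic (-0.40, *q* = 0.19) were not called, although the latter was without embryo-minus-otic replicate 3 (-0.57, *q* = 0.042).

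*Ndufv1*, the core subunit that binds FMN and takes electrons from NADH, was the smallest of the 7 lower calls and is named here after its values were seen. It measured 11.60, 11.72 and 11.62 on the OV arrays, 11.80, 11.85 and 11.67 on the periotic arrays and 12.08, 11.84 and 11.95 on the embryo-minus-otic arrays, on the log2 scale. OV lay below embryo-minus-otic on every array, with a log2 difference of -0.31 (SE 0.092, 1.24-fold, *q* = 0.040). The call was lost in 10 of 17 alternatives (*q* from 0.025 to 0.75), among them without embryo-minus-otic replicate 1 (0.15) or 3 (0.085), OV replicate 1 (0.13), 2 (0.056) or 3 (0.12) and periotic replicate 1 (0.059).

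The other 36 complex I probes were not called. Their genes include the core subunits *Ndufs3*, *Ndufs7*, *Ndufs8* and *Ndufv2*. *Ndufs4*, an accessory subunit, has 4 probes, and their log2 differences of OV from embryo-minus-otic ran from -0.31 to 0.14, and from periotic tissue from -0.46 to -0.09. The probe at -0.46 (ILMN_2663694, *q* = 0.14) was called without OV replicate 1 (-0.65, *q* = 0.024) or periotic replicate 2 (-0.66, *q* = 0.017). *Ndufa4* differed by 0.13 between OV and embryo-minus-otic (95% interval -0.11 to 0.37, *q* = 0.60). The median over all 39 probes was -0.05 in OV against embryo-minus-otic, -0.05 in OV against periotic tissue and 0.01 between the non-otic groups.

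In complex II, 2 of 6 probes were lower in OV than in embryo-minus-otic (33.3%, with 5.51% of all probes and 10.3% of the brighter 12849). Succinate dehydrogenase is both a citric acid cycle enzyme and a respiratory complex, with *Sdhc* and *Sdhd* encoding its membrane anchors and *Sdhb* its iron-sulfur subunit. *Sdhd* measured 8.31, 8.46 and 8.20 on the OV arrays, 8.47, 8.32 and 8.77 on the periotic arrays and 9.22, 9.10 and 8.98 on the embryo-minus-otic arrays, on the log2 scale. Embryo-minus-otic was above the other 6 arrays on all 3 of its own, while OV and periotic tissue overlapped. Embryo-minus-otic was 1.71-fold higher than OV (log2 difference of OV -0.78, SE 0.12, *q* = 2.3e-04) and 1.5-fold higher than periotic tissue (-0.58, SE 0.12, *q* = 0.0056). With median normalization *q* was 0.064 and 0.37, and with no normalization the second was 0.28. Over the 17 alternatives *q* ran from 6.9e-05 to 0.064 and from 0.0011 to 0.37. The difference of OV from periotic tissue was -0.19 (95% interval -0.44 to 0.05, *q* = 0.43).

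Of the 2 *Sdhc* probes, one (ILMN_1256125) was above background on no array and gave no level. The other (ILMN_2594149) measured 10.77, 10.62 and 10.42 on the OV arrays, 10.83, 10.89 and 11.01 on the periotic arrays and 10.98, 11.03 and 10.94 on the embryo-minus-otic arrays, on the log2 scale. OV lay below all 6 other arrays. The log2 difference of OV was -0.38 from embryo-minus-otic (SE 0.098, 1.30-fold, *q* = 0.019) and -0.30 from periotic tissue (SE 0.098, *q* = 0.067, and 0.031 without OV replicate 1). The call against embryo-minus-otic was lost in 5 of 17 alternatives (*q* from 0.011 to 0.67), among them without embryo-minus-otic replicate 2 (0.062) and OV replicate 2 (0.053) or 3 (0.11).

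None of the 3 *Sdhb* probes was called. Their log2 differences of OV were 0.00, 0.06 and 0.07 from embryo-minus-otic, with 95% intervals that all lay between -0.25 and 0.33, and -0.17, -0.07 and 0.09 from periotic tissue. Whether the anchors and *Sdhb* differ in their tissue differences was not tested.

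Complex III gave no call in any comparison (0 of 6 probes in each), and an unadjusted p under 0.05 was reached by 0, 0 and 1 probe. Of all probes, 11.4%, 10.2% and 5.81% were called, and 21.4%, 19.1% and 16% had an unadjusted p under 0.05. The core proteins *Uqcrc1* and *Uqcrc2* face the matrix side of the complex, and *Uqcrh* is its acidic hinge protein. *Uqcrc1*, named after its values were seen, had the largest difference in size against embryo-minus-otic, -0.18 on the log2 scale in OV (*q* = 0.42) and -0.30 in periotic tissue (*q* = 0.17, and 0.046 without embryo-minus-otic replicate 3). For all 6 probes the 95% interval lay within a 1.5-fold change in both OV comparisons, and for 5 between the non-otic groups.

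Complex IV held the largest difference of the 88 probes, in the muscle isoform *Cox6a2*. This subunit of cytochrome c oxidase is used in heart and skeletal muscle in place of *Cox6a1*. Its log2 intensities were 5.92, 5.90 and 5.68 in OV and 5.76, 5.84 and 5.78 in periotic tissue, where it was above background on no array. In embryo-minus-otic they were 7.43, 7.28 and 7.14, above background on all 3 arrays. The embryo-minus-otic arrays lay above all others, while OV and periotic tissue overlapped. Embryo-minus-otic was at least 2.11-fold higher than OV (*q* = 4.5e-08) and at least 2.14-fold higher than periotic tissue (*q* = 7.6e-08). For these bounds the dim group was given, array by array, either its own signal or the weakest signal of any probe above background, whichever was higher, and those values were averaged. The measured log2 differences were -1.45 (SE 0.098) and -1.49 (SE 0.098), and all 17 alternatives kept both calls. The neqc background correction gave -2.42 and -2.49.

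*Cox6a1* did not share this pattern. Its 2 probes differed between OV and embryo-minus-otic by 0.05 (95% interval -0.16 to 0.27) and 0.06 (-0.16 to 0.29) on the log2 scale, and between OV and periotic tissue by -0.05 and -0.04.

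The other muscle isoform above background, *Cox7a1*, was lower in OV. It measured 6.39, 6.26 and 6.21 in OV (above background on 2 of 3 arrays), 6.51, 6.32 and 6.59 in periotic tissue and 6.80, 6.66 and 6.90 in embryo-minus-otic, on the log2 scale. The embryo-minus-otic arrays lay above all others, and OV and periotic tissue overlapped. The log2 difference of OV from embryo-minus-otic was -0.50 (SE 0.099, 1.41-fold, *q* = 0.0030), and its call was kept in all 17 alternatives. With the neqc correction it was -0.88. That of periotic tissue from embryo-minus-otic was -0.31 (SE 0.099, *q* = 0.091). *Cox7a2* differed by -0.18 between OV and embryo-minus-otic (95% interval -0.47 to 0.11, *q* = 0.53).

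**Figure D2:**
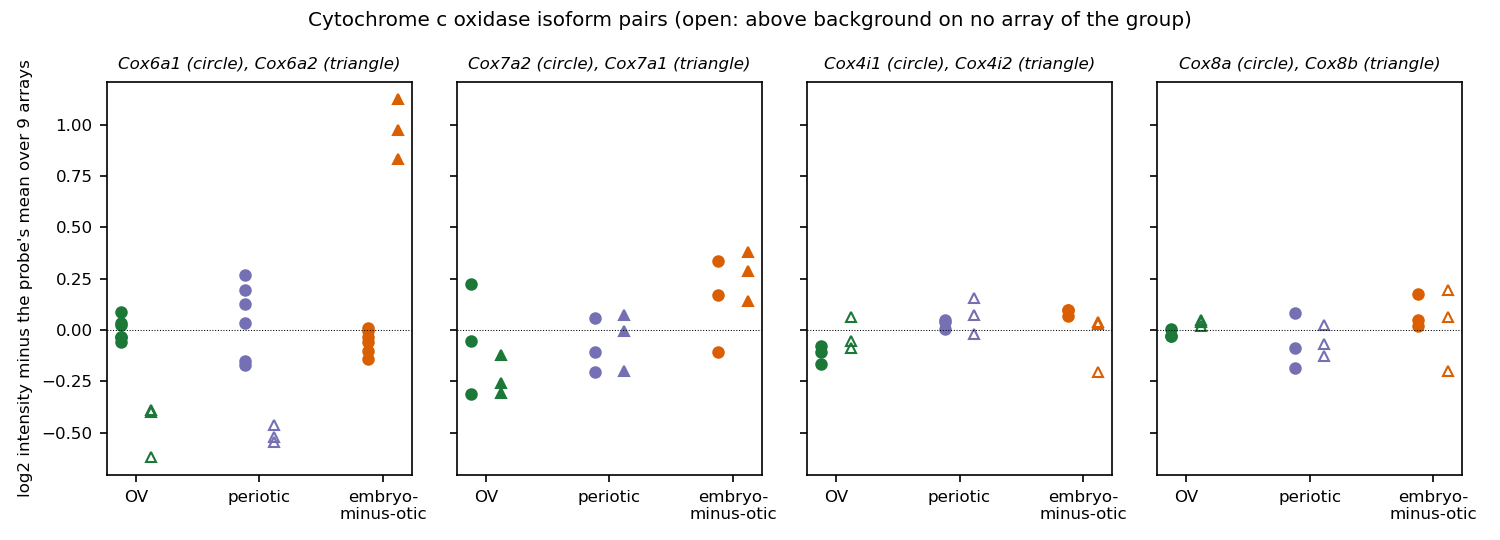
Log2 intensity minus the probe's mean over the 9 arrays (vertical axis) for 4 isoform pairs of cytochrome c oxidase, by tissue group (horizontal axis), with 1 point per array and probe and 2 probes for *Cox6a1*. Circles are the widely used isoform, triangles the tissue isoform, and open symbols mark groups in which the probe was above background on no array. *Cox6a2* stands apart on the 3 embryo-minus-otic arrays, where it was above background, and *Cox4i2* and *Cox8b* were above background in no group.

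The remaining isoform sets gave no call. *Cox4i1*, the widely used form of the regulatory subunit, measured 12.08, 12.11 and 12.02 on the OV arrays, 12.23, 12.19 and 12.22 on the periotic arrays and 12.28, 12.25 and 12.28 on the embryo-minus-otic arrays, on the log2 scale. OV lay below the other arrays, by 0.20 from embryo-minus-otic (log2 difference -0.20, SE 0.079, *q* = 0.13) and 0.15 from periotic tissue (log2 difference -0.15, *q* = 0.36). Its lung isoform *Cox4i2*, the muscle isoform *Cox8b* and the testis isoform *Cox8c* were not above background on any array. *Cox8a* differed by -0.10 in OV against embryo-minus-otic (*q* = 0.63), and the 2 probes of *Cox6b* by 0.09 and 0.07. *Cox7b* had a log2 difference of -0.47 in periotic tissue from embryo-minus-otic that was not called (*q* = 0.063), though it was without OV replicate 3 (*q* = 0.037) or periotic replicate 3 (-0.58, *q* = 0.024). *Cox7a2l*, which helps to join complexes III and IV, differed by -0.22 in OV against periotic tissue (*q* = 0.27).

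Complex V gave 1 call, in OV against embryo-minus-otic (5.26% of its 19 probes, with 11.4% of all probes called). *Atp5c1*, the gamma subunit that turns inside the catalytic head, measured 11.78, 11.94 and 11.60 on the OV arrays, 12.00, 11.91 and 11.96 on the periotic arrays and 12.22, 12.00 and 12.19 on the embryo-minus-otic arrays, on the log2 scale. OV lay below embryo-minus-otic on all arrays and overlapped periotic tissue. The log2 difference of OV from embryo-minus-otic was -0.36 (SE 0.099, 1.28-fold, *q* = 0.027). Its call was lost in 8 of 17 alternatives (*q* from 0.015 to 0.57), among them without embryo-minus-otic replicate 1 (0.095) or 3 (0.085) and OV replicate 1 (0.072) or 3 (0.15).

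The catalytic subunit *Atp5b* measured 14.15 ± 0.038 in OV, 14.17 ± 0.14 in periotic tissue and 14.19 ± 0.042 in embryo-minus-otic (log2 intensity, SD, n = 3), and it is named after its values were seen. Its log2 difference of OV from embryo-minus-otic was -0.05 (95% interval -0.24 to 0.15). The c-ring is encoded by *Atp5g1*, *Atp5g2* and *Atp5g3*, which make the same mature protein. Their log2 differences of OV were -0.05, -0.00 and -0.11 from embryo-minus-otic and -0.10, -0.02 and -0.09 from periotic tissue, with *q* of 0.56 or more.

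**Figure D3:**
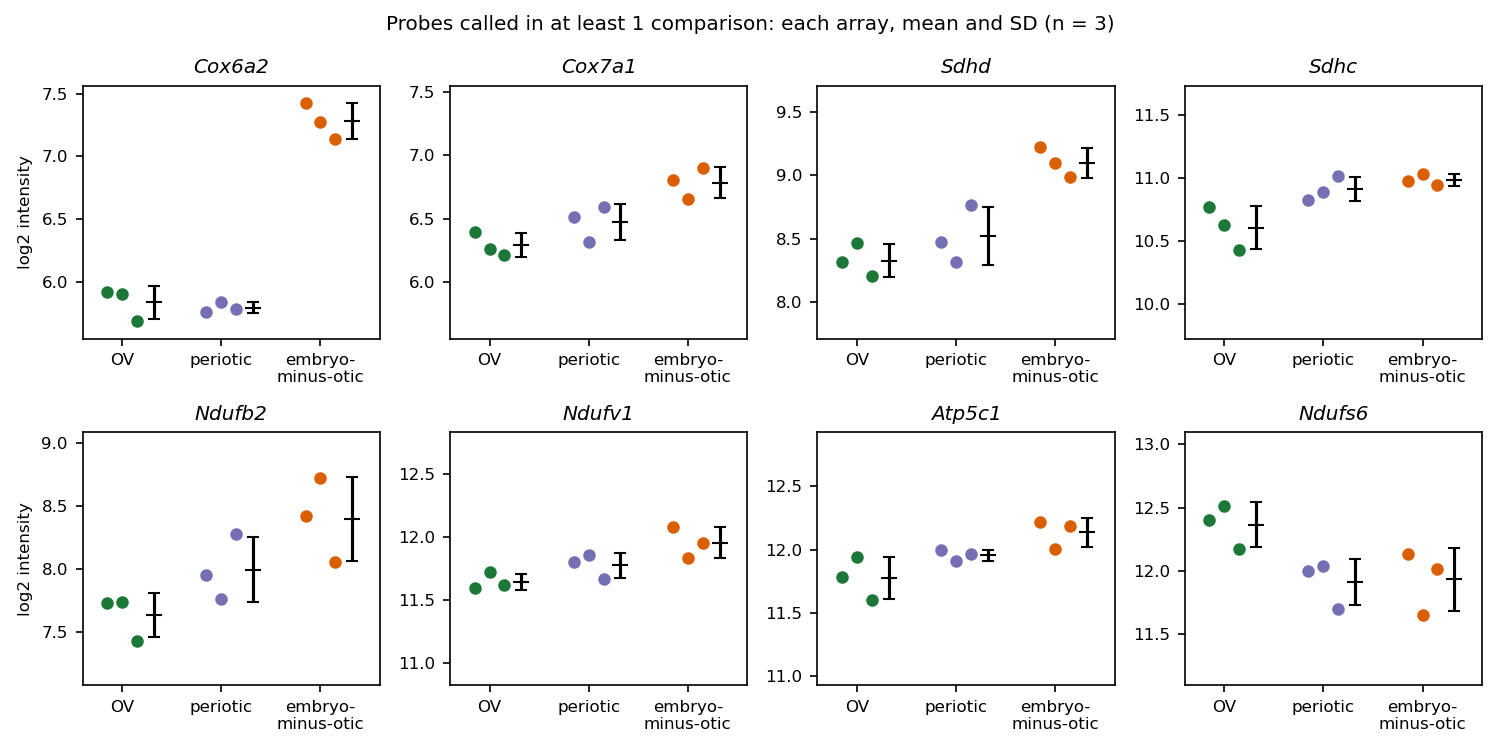
Log2 intensity (vertical axis) of the 8 probes called in at least 1 comparison, by tissue group (horizontal axis), with a point for each array and bars for mean and SD (n = 3). Each panel has its own vertical range. *Cox6a2* separates embryo-minus-otic from both other groups, and *Ndufs6* has its 3 highest arrays in OV.

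The levels of whole complexes overlapped in most cases. As a description of each array, the median over a complex's probes was taken of the log2 intensity minus the probe's mean over the 9 arrays. For complex I it ran from -0.13 to 0.04 on the OV arrays, from -0.07 to 0.10 on the periotic tissue arrays and from -0.07 to 0.04 on the embryo-minus-otic arrays. For complex IV it ran from -0.13 to 0.02, from -0.04 to 0.00 and from 0.05 to 0.08, so that the embryo-minus-otic arrays lay above the others. For complex V it ran from -0.15 to 0.06, from 0.01 to 0.02 and from 0.05 to 0.07. OV overlapped both other groups, and the periotic arrays lay below the embryo-minus-otic arrays. The medians of complexes II and III overlapped between all groups. In all 5 complexes the lowest OV value came from OV replicate 3, at -0.13, -0.06, -0.12, -0.13 and -0.15 for complexes I to V, while the other OV arrays lay between -0.05 and 0.16.

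**Figure D4:**
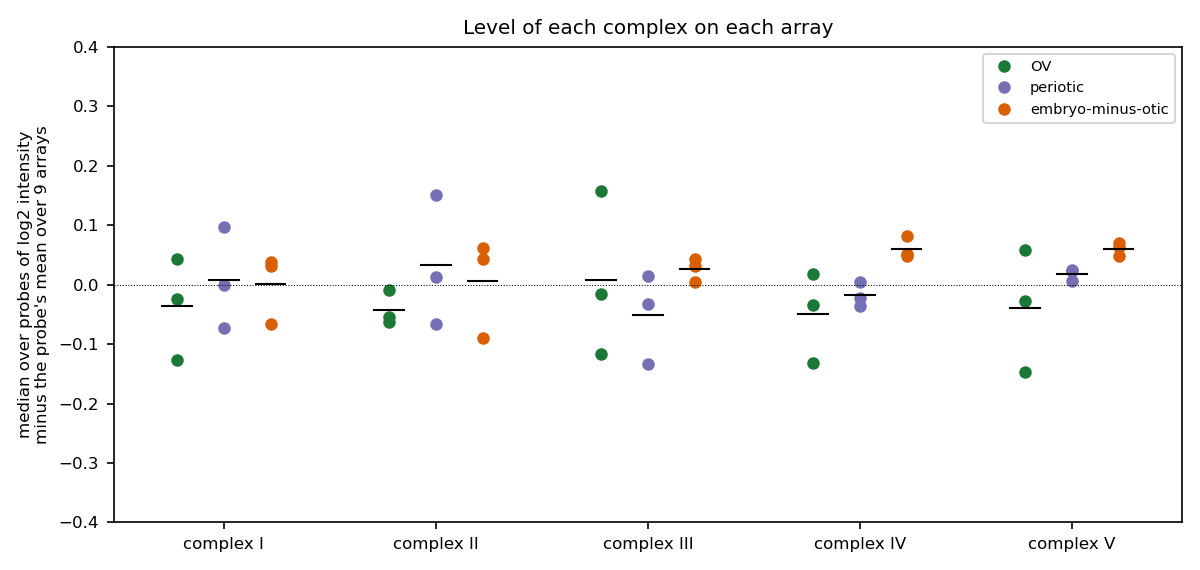
For each respiratory complex (horizontal axis), the median over its probes of log2 intensity minus the probe's mean over the 9 arrays (vertical axis), with 1 point per array and bars for the mean of 3 arrays. All values lie between -0.15 and 0.16, after quantile normalization. The 3 embryo-minus-otic arrays are highest for complex IV, but with median normalization the complex IV median of periotic tissue minus embryo-minus-otic goes from -0.07 to 0.08.

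The dissected tissues were checked by marker genes. Of 7 probes of the otic markers *Oc90*, *Fbxo2*, *Lmx1a* and *Pax2*, 6 were higher in OV in both comparisons, and the 4 hindbrain marker probes were all higher in periotic tissue than in embryo-minus-otic. Of the 7 mesenchyme marker probes, 0 were called between OV and periotic tissue, and 5 were lower in periotic tissue than in embryo-minus-otic. Heart muscle markers (9 probes, with *Tnnt2* not analysed here) had 7 probes lower in OV and 7 lower in periotic tissue than in embryo-minus-otic, and 0 called between OV and periotic tissue. On the OV arrays they summed to intensities of 475 to 779, on the periotic arrays of 478 to 513 and on the embryo-minus-otic arrays of 5884 to 6402, with 5 of 9 above background on no OV array and all 9 on no periotic array. This is the order of groups that *Cox6a2* followed. Its part in that result was not tested. Erythroid markers had all 7 probes lower in OV in both comparisons, with summed intensities from 14859 to 37451 (OV), from 59082 to 67721 (periotic) and from 76794 to 84643 (embryo-minus-otic), and 1 probe lower in periotic tissue than in embryo-minus-otic. The 3 liver marker probes summed to 180 to 206, 174 to 221 and 454 to 607. The part of blood and liver in the lower calls of OV was not tested.

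Other genes of the same pathway were counted from fixed lists. Assembly factors outside the rule (25 probes, 15 of 28 genes) had 1 probe called, higher in OV than in embryo-minus-otic (4%, with 5.89% of all probes). It was 1 of 3 probes of *Lrpprc*, which stabilises mitochondrial transcripts, and the probes disagreed, with log2 differences of 0.36 (*q* = 0.036), 0.02 and -0.36. Citric acid cycle genes (23 probes, 18 genes) had 0 calls in OV against embryo-minus-otic and 0 between the non-otic groups. An unadjusted p under 0.05 was reached there by 6 and 3 probes (26.1% and 13%, with 21.4% and 16% of all probes). In OV against periotic tissue, 1 probe was called. That probe was *Pdha1*, a subunit of pyruvate dehydrogenase, with a log2 difference of -0.32 (*q* = 0.041). It made up 4.35% of the list, where the lower calls of all probes made up 5.15%.

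Carriers that link to the chain (23 probes, 13 of 16 genes) had 4 probes lower and 0 higher in OV than in embryo-minus-otic (17.4% lower, with 5.51% of all probes and 10.3% of the brighter 12849). They were *Etfb* at -0.44 (*q* = 0.011), *Etfa* at -0.42 (*q* = 0.010) and at -0.36 (*q* = 0.050, just under the threshold), and *Coq5* at -0.42 (*q* = 0.0094), all log2 differences. The other probes of these genes were not called, with differences of -0.18 (*q* = 0.55) for *Etfb*, -0.04 (*q* = 0.88) and -0.21 (*q* = 0.45) for *Etfa*, and -0.09 (*q* = 0.68) and -0.20 (*q* = 0.35) for *Coq5*. *Etfa* and *Etfb* encode the electron transfer flavoprotein, which feeds electrons from fatty acid oxidation to ubiquinone, and *Coq5* is an enzyme of ubiquinone synthesis. In periotic tissue, 3 of the 4 *Etfa* probes were lower than in embryo-minus-otic, by log2 differences of -0.67, -0.51 and -0.38, and the remaining probe stood at -0.48 (*q* = 0.054). Those 3 were the only calls of the list between the non-otic groups (13%, with 2.95% of all probes and 5.49% of the brighter 12849 called lower). Against periotic tissue, OV had 1 *Etfa* probe higher (0.34, *q* = 0.045) and 1 *Etfb* probe lower (-0.41, *q* = 0.018). Each made up 4.35% of the list, where 5.07% of all probes were called higher and 5.15% lower. *Cycs*, the cytochrome c gene, had log2 differences of OV from embryo-minus-otic of 0.01 and -0.02 at its 2 probes and is named after its values were seen.

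Regulators of mitochondrial biogenesis (20 probes, 15 of 16 genes) had 3 probes lower in OV than in embryo-minus-otic (15%, with 5.51% of all probes and 10.3% of the brighter ones). *Tfam*, the mitochondrial transcription factor, had 2 probes, at -0.38 (*q* = 0.035) and -0.25 (*q* = 0.18). The coactivators *Ppargc1a* (-0.32, *q* = 0.045) and *Ppargc1b* (-0.32, *q* = 0.044) were above background on no OV array and on all 3 embryo-minus-otic arrays, so the OV side is a bound. *Gabpb1*, a subunit of the factor NRF2, had 1 of 2 probes higher in OV than in periotic tissue (0.42, *q* = 0.036). It was the only call of the list in that comparison (5%, with 5.07% of all probes called higher). Between the non-otic groups 0 of 20 were called, with 3 at an unadjusted p under 0.05 (15%, with 16% of all probes). Mitochondrial ribosomal proteins (105 probes) had 0 higher and 4 lower in OV than in embryo-minus-otic, 1 and 3 against periotic tissue, and 3 and 5 between the non-otic groups. Cytosolic ribosomal proteins (92 probes) had 2 and 1, 3 and 0, and 0 and 2. Calls in either direction made up 3.81%, 3.81% and 7.62% of the mitochondrial list and 3.26%, 3.26% and 2.17% of the cytosolic list. Of all probes they made up 11.4%, 10.2% and 5.81%. The lower calls of the mitochondrial list made up 3.81%, 2.86% and 4.76% of it, where those of all probes made up 5.51%, 5.15% and 2.95%.

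**Figure D5:**
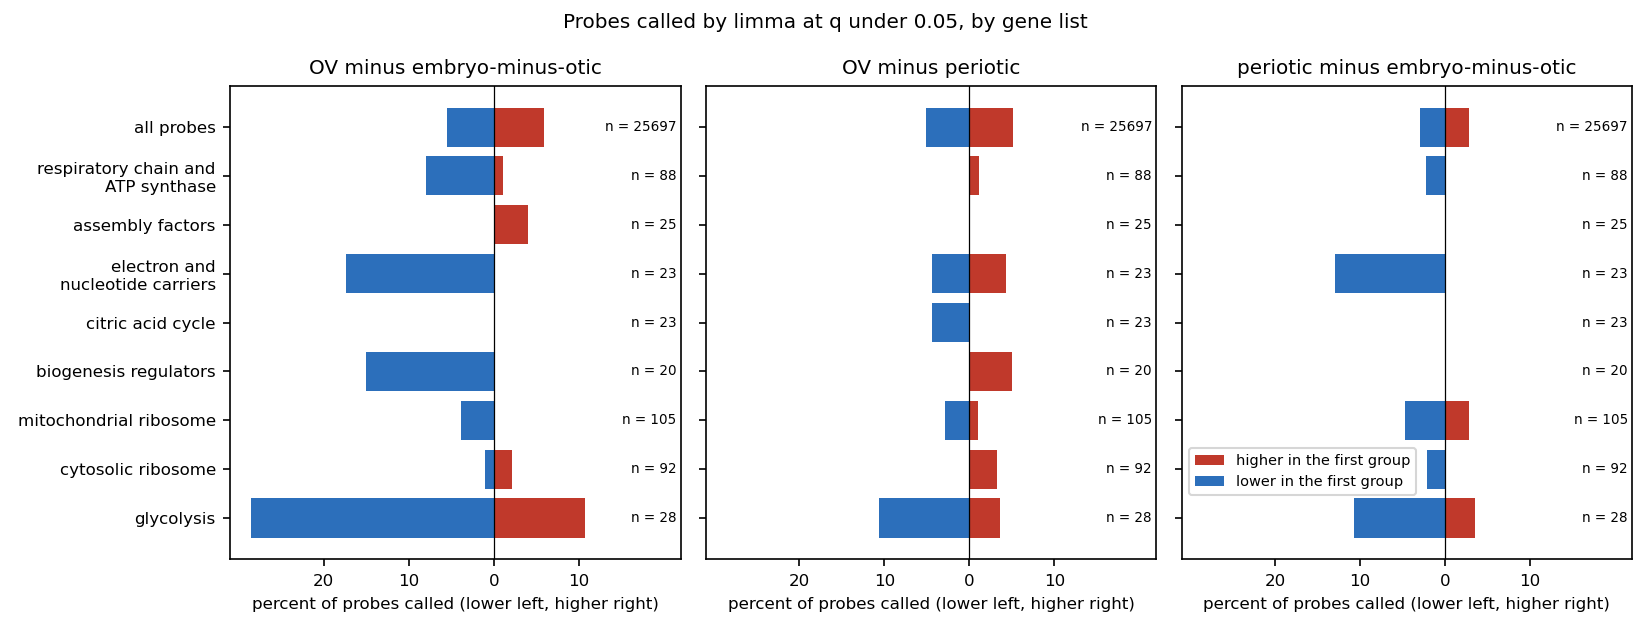
Percent of probes called at *q* under 0.05 (horizontal axis, lower in the first group to the left and higher to the right) for all probes, for the respiratory chain and ATP synthase and for the other lists (vertical axis), in 3 comparisons. The number of probes is given at the right. Glycolysis has the longest bars in the first panel, with 28.6% lower and 10.7% higher in OV than in embryo-minus-otic. The respiratory chain has 7.95% and 1.14%, and all probes have 5.51% and 5.89%.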

How the data were processed

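RNA from 9 pools (3 OV, 3 periotic tissue, 3 embryo-minus-otic) was measured on Illumina MouseRef-8 arrays, 1 array per pool. The authors deposited for each probe an average signal from GenomeStudio, an intensity not normalized between arrays, and a detection p-value that ranks it against negative controls. Whether background was subtracted is not given in the sources used here, and the slide of each array was not analysed here. The lowest intensity was 32.8, so the floor of 1 changed no value.

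Signals were log2 transformed, quantile normalized over 9 arrays and fitted in R 4.3.3 by limma 3.58.1, with 1 model of 3 groups per probe and no block. The 25697 probes were adjusted together by Benjamini-Hochberg. The number of arrays limits the precision. The steps were tested on simulated data. Probes were not averaged by gene, and chromosome positions are those of the RefSeq windows.

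The members and lists were chosen with earlier results of these data known. Named probes were the 6 called with the largest difference in each direction per comparison, all *Sdh* probes and the isoform sets, with up to 4 genes of other lists.

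Alternatives were neqc (offset 16), no normalization, median normalization, dropping probes not above background, only the groups compared, weighted arrays, a prior with an intensity trend, the replicate number as a block, each array left out in turn, and a detection threshold of 0.05.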

Additional observations from a re-analysis of the deposited data

How the results depend on the processing

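No called difference changed direction in any of the 17 alternatives. *Cox6a2* (both comparisons) and *Cox7a1* kept their calls in all 17, *Ndufb2* and *Sdhd* in OV against embryo-minus-otic in 16, and *Sdhd* between the non-otic groups in 15. The count of probes lower in OV than in embryo-minus-otic was 7. It became 2 with median normalization and 4 with no normalization, and ran from 4 (without OV replicate 3) to 8 when single arrays were left out. The count higher, 1 in both OV comparisons (*Ndufs6*), became 0 with neqc and with no normalization in both, 0 with only the groups compared against embryo-minus-otic and 0 with median normalization against periotic tissue, and ran from 0 to 1 over the arrays left out. The count lower in OV than in periotic tissue, 0, ran from 0 to 2, with 2 (*Ndufs4*, *Sdhc*) without OV replicate 1 and 1 (*Ndufs4*) without periotic replicate 2. The count lower in periotic tissue than in embryo-minus-otic, 2, became 1 with median normalization and 1 with no normalization, and ran from 2 to 4, with 4 without embryo-minus-otic replicate 3 (*Ndufb2* and *Uqcrc1* added) or without periotic replicate 3 (*Atp5a1* and *Cox7b* added). The shares of all probes called under each alternative are not given here. These counts therefore cannot tell a change in the member probes from one over the whole array. The cause was not tested.

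The member median of periotic tissue against embryo-minus-otic became 0.15 with median normalization. Of 255 recomputed complex medians, 248 moved by less than the spread between arrays, 6 of the other 7 moved with median normalization, and 21 changed sign.

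Replicate numbers are shared by the groups in the labels, and the pools came from 3 litters. Which litter a number stands for is not given in the sources used here, so the main model did not pair the arrays. Of the same-numbered pairs, 5 of 9 correlated over 0.1 (0 of 18 others). Deviations from the group means correlated by 0.0080 to 0.18 between same-numbered arrays and by -0.14 to 0.049 between others. In both other groups, 7 of 9 arrays correlated best with their own number, a hint of pairing that the labels do not state. With the replicate block, the count lower in OV than in periotic tissue was 1 (*Ndufs4*, *q* = 0.045), that lower in periotic tissue than in embryo-minus-otic was 3 (*Cox7b* added, *q* = 0.042), and the 8 calls of OV against embryo-minus-otic stayed 8.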

Other observations

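Glycolysis, the cytosolic route to ATP, had a larger share of its probes called than the respiratory chain in OV against embryo-minus-otic, and whether the shares differ was not tested. Of 28 probes (19 of 23 genes, with *Gapdh*, *Gpi1*, *Ldha* and *Ldhb* not analysed here), 8 were lower and 3 higher in OV. These made up 28.6% and 10.7% of the list, with 5.51% and 5.89% of all probes. Of the brighter 12849 probes, 10.3% were lower and 10.9% higher. *Slc2a3*, a glucose transporter, measured 8.76 ± 0.32 in OV, 10.11 ± 0.50 in periotic tissue and 10.54 ± 0.18 in embryo-minus-otic (log2 intensity, SD, n = 3), with log2 differences of OV of -1.78 (*q* = 1.3e-05) and -1.35 (*q* = 2.1e-04). *Slc2a1*, the glucose transporter of red cells and many epithelia, measured 10.83 ± 0.19, 11.57 ± 0.19 and 11.87 ± 0.098, with differences of -1.03 (*q* = 1.3e-05) and -0.74 (*q* = 3.7e-04). *Eno3*, the muscle form of enolase, measured 10.02 ± 0.099, 8.17 ± 0.080 and 9.21 ± 0.21 and was higher in OV by 0.80 (*q* = 6.5e-05) and 1.85 (*q* = 6.1e-09). *Aldoc*, an aldolase of neural tissue, measured 6.81 ± 0.16, 6.83 ± 0.054 and 6.22 ± 0.038, above background on 1 of 3 embryo-minus-otic arrays, and was higher in OV than in embryo-minus-otic by 0.59 (*q* = 3.9e-04). The erythroid markers were lower in OV too, and their part in these values was not tested.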
